A study of Mus musculus with 14 samples.

Results

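Induced pluripotent stem cells made from fibroblasts of aged mice with added ZSCAN10 (A-iPSC-ZSCAN10, arrays 3 and 7) were set against induced pluripotent stem cells made from fibroblasts of young mice (Y-iPSC, arrays 12 and 4), to describe which transcripts still differed between them. Expression was measured on Illumina MouseRef-8 v2.0 bead arrays, which read each transcript with 1 or more probes. All probes with a detection p-value under 0.05 on both arrays of at least 1 of these groups were taken, which gave 13061 of 25697 probes, or 8891 named genes. Of these, 11472 were detected on all 4 arrays, 823 on both A-iPSC-ZSCAN10 arrays but not on both Y-iPSC arrays, and 766 on both Y-iPSC arrays but not on both A-iPSC-ZSCAN10 arrays.

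Both groups came from mice of the B6CBAF1 strain and both had received retroviruses carrying mouse Oct4, Sox2, Klf4 and Myc. The A-iPSC-ZSCAN10 started from tail tip skin fibroblasts of donors aged 1.5 years and also carried a doxycycline-inducible ZSCAN10, with doxycycline at 2 µg/ml. The Y-iPSC started from skin fibroblasts of E17.5 embryos and had neither. Donor age, developmental stage, body site, the added ZSCAN10 and doxycycline therefore differ together between the groups and cannot be told apart. The other arrays of the series entered the model for its estimate of the spread: 2 of iPSC from aged donors without added ZSCAN10 (A-iPSC), 2 of embryonic stem cells (ESC), and 3 each of the aged (A-SC) and young (Y-SC) fibroblasts. The labels do not tell if the arrays of a group came from different animals or cultures. By the sex-linked genes given below, the arrays within Y-iPSC, A-SC and Y-SC were not repeats of 1 RNA sample. The part of the spread that comes from the other groups may be technical.

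Reprogramming replaces the transcription programme of a fibroblast with that of a pluripotent cell, in which Oct4, Sox2 and Nanog keep the stem cell genes on and the genes for collagen matrix and other skin programmes fall silent. ZSCAN10 is a zinc finger transcription factor of embryonic stem cells that binds together with Oct4 and Sox2. Pluripotent cells in culture also differ in how far they run glycolysis and the hypoxia response, in which HIF transcription factors are held down by prolyl hydroxylases, and in how much residual or early differentiated tissue they hold. In bulk RNA such as this, fewer cells of a type and less RNA per cell cannot be told apart.

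Levels below are log2 normalized intensity, differences are A-iPSC-ZSCAN10 minus Y-iPSC on the log2 scale ± standard error with n = 2 arrays per group, and adjusted p-values are from limma with Benjamini-Hochberg adjustment over 14742 tested probes. The lowest level of a detected probe lay between 4.93 and 5.03 on these 4 arrays. A difference is said to pass at an adjusted p under 0.05.

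The agreement between arrays set the limits of the comparison. Over the 13061 probes the A-iPSC-ZSCAN10 arrays differed by more than 1 log2 unit at 4.46% of probes, and the Y-iPSC arrays did so at 16.14%. Array by array, A-iPSC-ZSCAN10 3 and 7 differed that much from Y-iPSC 12 at 12.63% and 11.36% of probes, and from Y-iPSC 4 at 19.75% and 18.76%. The distance between the 2 Y-iPSC arrays was thus larger than that of either A-iPSC-ZSCAN10 array from Y-iPSC 12. Y-iPSC 4 stood apart in sex-linked genes. Eif2s3y, a translation factor gene on the Y chromosome, had levels of 9.76 and 9.07 in A-iPSC-ZSCAN10 3 and 7, against 9.81 in Y-iPSC 12 and 4.62 in Y-iPSC 4. Xist, the RNA that silences an X chromosome in female cells, was at 4.93 and 4.72 in A-iPSC-ZSCAN10, against 4.71 in Y-iPSC 12 and 7.26 in Y-iPSC 4. Of these 4 arrays only Y-iPSC 4 had no detected Eif2s3y, and it alone had detected Xist. The model was therefore refitted with each of the 4 arrays left out in turn, and calls lost in these fits are given for the genes described. Each such fit leaves 1 array in a group, and that group then adds nothing to the estimated spread. A call that held in them is therefore not a test on further arrays. Sex-linked genes also differed among the fibroblast arrays that entered the spread. In A-SC 1, 1.3 and 1.4 Eif2s3y was at 10.11, 4.42 and 4.54, and Xist at 4.49, 7.73 and 7.99. In Y-SC 1, 16 and 17 Eif2s3y was at 10.04, 4.41 and 9.78, and Xist at 4.42, 7.96 and 4.43.

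**Figure D1:**
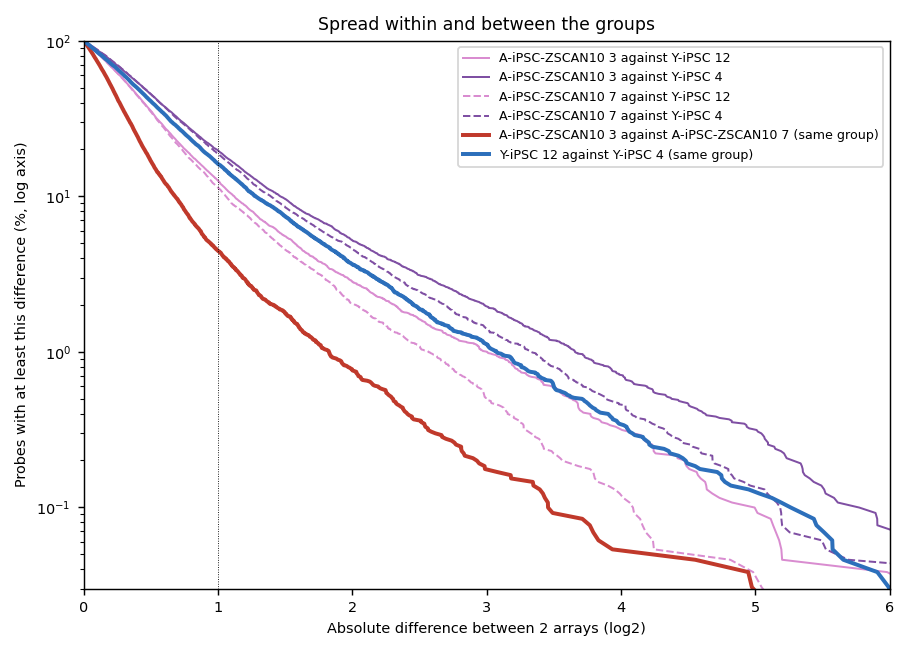
Share of the 13061 probes (%, log axis) whose absolute log2 difference between 2 arrays is at least the value on the x axis. The A-iPSC-ZSCAN10 pair (red) lies lowest, with 4.46% of probes past 1 log2 unit, while the Y-iPSC pair (blue) reaches 16.14% and lies among the lines that compare arrays of different groups.

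Some pluripotency markers reached the level of embryonic stem cells on these arrays and others did not. Pou5f1, which encodes Oct4, had levels of 11.37 and 12.09 in A-iPSC-ZSCAN10, against 12.52 and 13.05 in Y-iPSC, and reached 12.26 and 11.58 in ESC. Esrrb, an orphan receptor that marks naive stem cells, was at 4.50 and 5.17 in A-iPSC-ZSCAN10, against 5.03 and 4.75 in Y-iPSC, at or near the lowest detected level, while ESC had 12.85 and 12.64. Nanog, a core pluripotency factor, was at 5.10 and 6.92 in A-iPSC-ZSCAN10, against 6.34 and 6.60 in Y-iPSC, and at 12.12 and 12.07 in ESC. In Pou5f1 both Y-iPSC arrays were thus above both ESC arrays and the A-iPSC-ZSCAN10 arrays overlapped with ESC. Pou5f1 was also introduced by retrovirus, and whether its probe reads that transcript is not given in the sources used here. Gdf3, a marker not introduced, had 10.35 and 11.47 in A-iPSC-ZSCAN10, against 9.96 and 10.93 in Y-iPSC, and 10.87 and 11.15 in ESC. Esrrb and Nanog were far below ESC in both groups. The mean over 13 pluripotency markers was 7.31 and 7.91 in A-iPSC-ZSCAN10, against 8.02 and 7.23 in Y-iPSC, and 10.63 and 10.61 in ESC, so the label "pluripotent" held for part of the markers only.

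Zscan10, the added gene, had levels of 7.96 and 8.71 in A-iPSC-ZSCAN10, against 7.57 and 6.44 in Y-iPSC. Both A-iPSC-ZSCAN10 arrays were above both Y-iPSC arrays, and the difference of 1.33 ± 0.38 did not pass (adjusted p = 0.127). Without Y-iPSC 12 it was 1.90 and passed. For orientation, A-iPSC had 5.17 and 4.48, and ESC had 9.53 and 9.92. Whether this probe reads the transgene, the mouse gene or both is not given in the sources used here. The same holds for the probes of the 4 reprogramming factor genes. Of the 4 reprogramming factor genes, none passed by its highest probe: Pou5f1 differed by -1.06 ± 0.32 (adjusted p = 0.149), Sox2 by -1.25 ± 0.39 (adjusted p = 0.163), Klf4 by -1.04 ± 0.55 (adjusted p = 0.475) and Myc by 0.08 ± 0.48 (adjusted p = 0.983). Sox2 passed without Y-iPSC 12, and 1 of 3 Klf4 probes passed at -2.29.

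Across the whole set the median difference was 0.02 with quartiles at -0.31 and 0.34, and the extremes were -6.18 and 4.76. Quantile normalization gives all arrays the same distribution of levels. A median near 0 follows from that step and does not tell how close the groups were. With median scaling instead it was 0.117. Of the 13061 probes, 198 passed, of which 93 were higher in A-iPSC-ZSCAN10 than in Y-iPSC and 105 lower, against a background of 1.34% of all tested probes in either direction, 0.631% higher and 0.712% lower. They belong to 158 named genes, 69 higher and 89 lower. Both arrays of one group lay beyond both arrays of the other at every one of these 198 probes, as they also did at 25.9% of all 13061 probes in the higher and 23.5% in the lower direction (24.9% and 22.3% of all tested probes). The smallest difference that passed was 1.05, while 702 probes differed by more than 1 and 718 by less than -1. Of the 198, 124 were detected on all 4 arrays, 18 of the higher ones on no Y-iPSC array and 21 of the lower ones on no A-iPSC-ZSCAN10 array.

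How many probes passed depended on the arrays. The number was 65 when A-iPSC-ZSCAN10 3 was left out, 147 when A-iPSC-ZSCAN10 7 was, 733 when Y-iPSC 12 was and 147 when Y-iPSC 4 was. Of the 198 probes, 51, 100, 175 and 76 still passed in those fits, and 36 passed in all 4 of them, 17 higher and 19 lower. When only the 4 arrays were fitted, limma called 0 probes at this threshold and 1816 had an unadjusted p under 0.05, compared with 1901 in the fit of all 14 arrays. The calls rest therefore on a spread estimated largely from the other groups.

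**Figure D2:**
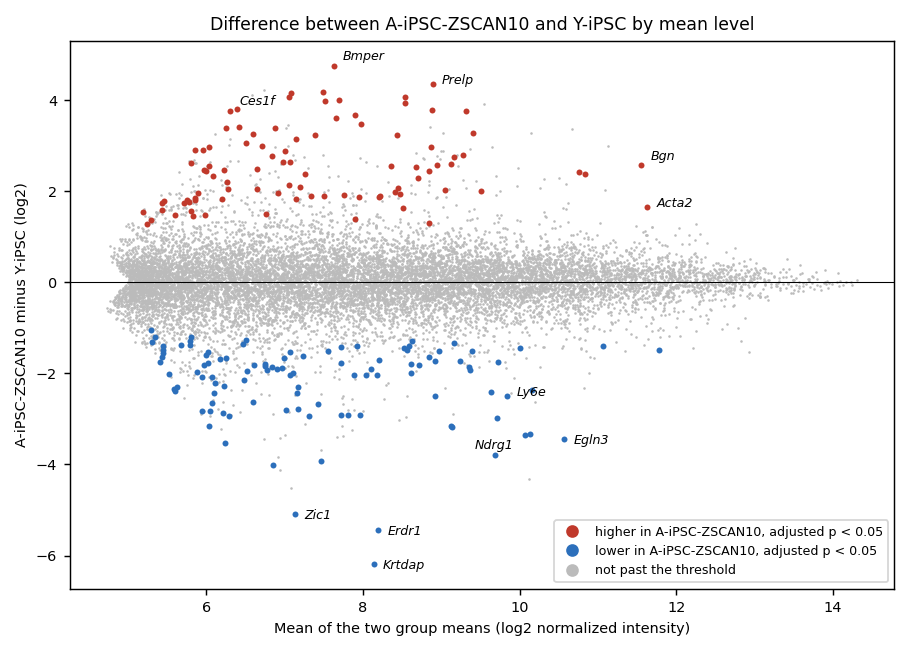
Difference A-iPSC-ZSCAN10 minus Y-iPSC (log2) against the mean of both group means (log2 normalized intensity), 1 point per probe of the 13061. Coloured points pass at an adjusted p under 0.05, 93 higher (red) and 105 lower (blue), and they lie at low as well as high levels.

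Among the genes higher in A-iPSC-ZSCAN10 were 3 of BMP signalling. Bmper, a secreted protein that binds BMPs, had levels of 10.23 and 9.79 in A-iPSC-ZSCAN10, against 5.55 and 4.95 in Y-iPSC. It was higher by 4.76 ± 0.39 (adjusted p = 0.00019), the largest rise in the set, with no overlap between the groups. Fst encodes follistatin, which traps activins and some BMPs, and had 9.13 and 9.05 in A-iPSC-ZSCAN10, against 4.89 and 5.17 in Y-iPSC. Its rise of 4.06 ± 0.58 passed (adjusted p = 0.00611) and the groups lay far apart, but the call was lost without A-iPSC-ZSCAN10 3. Bmp1, a protease that trims procollagens and releases BMPs from their inhibitors, rose by 2.46 ± 0.48 (adjusted p = 0.0288) by 1 probe. Only 2 of its 4 probes passed, and the 4 ranged from -0.19 to 2.46. The call held in 1 of the 4 fits with an array left out, the one without Y-iPSC 12, and in 9 of 14 other settings. Of the 25 tested genes of BMP signalling and ID factors these 3 rose and none fell, with a median of 0.19, where 1.45% of the 10004 tested genes passed and their median was 0.02. All 3 were also high in fibroblasts, with A-SC and Y-SC means of 9.66 and 9.84 (Bmper), 10.24 and 9.85 (Fst), and 10.70 and 10.92 (Bmp1). In limma A-iPSC-ZSCAN10 was above ESC in Bmper (2.98, adjusted p = 0.000455). Fst (0.82, adjusted p = 0.406) and Bmp1 (0.13, adjusted p = 0.909) did not pass there. Y-iPSC was below ESC in Bmper (-1.78), Fst (-3.24) and Bmp1 (-2.32).

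Extracellular matrix genes of fibroblasts stood mostly higher in A-iPSC-ZSCAN10, unlike those of the basement membrane. Of 16 tested basement membrane genes 0 passed in limma (1 had an unadjusted p under 0.05), with a median of 0.01. Over all tested genes 1.45% passed, so the count of 0 tells little by itself. Bgn, which encodes the small proteoglycan biglycan, had levels of 12.94 and 12.74 in A-iPSC-ZSCAN10, against 10.33 and 10.20 in Y-iPSC. It rose by 2.57 ± 0.23 (adjusted p = 0.00026), and the arrays within each group differed far less than the groups. Prelp, a leucine-rich proteoglycan that anchors basement membranes, had 12.42 and 9.72 in A-iPSC-ZSCAN10, against 6.23 and 7.20 in Y-iPSC. Its rise of 4.36 ± 0.81 (adjusted p = 0.0244) came with a wide gap between A-iPSC-ZSCAN10 3 and 7, and the call held in 1 of the 4 fits with an array left out. Ccdc80, a secreted matrix protein, had 10.70 and 10.02 in A-iPSC-ZSCAN10, against 7.02 and 7.77 in Y-iPSC, and rose by 2.97 ± 0.45 (adjusted p = 0.00935). Loxl1, an enzyme that crosslinks elastin, had 10.24 and 9.02 in A-iPSC-ZSCAN10, against 7.34 and 6.83 in Y-iPSC, and rose by 2.55 ± 0.49 (adjusted p = 0.0287). The call of Loxl1 held in 6 of 14 other settings and that of Ccdc80 in 13. Neither gene's groups overlapped, while Loxl1 lost its call when A-iPSC-ZSCAN10 3 or Y-iPSC 4 was left out, and Ccdc80 without A-iPSC-ZSCAN10 3.

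Of the 35 tested genes of fibroblasts and extracellular matrix, 5 rose (Twist2, Ccdc80, Bgn, Loxl1 and Timp2) and 1 fell (Ccn1), with a median difference of 1.46. Over all 10004 tested genes 0.67% were called higher and 0.78% lower. In 22 of the 35 both A-iPSC-ZSCAN10 arrays were above both Y-iPSC arrays, as in 25.1% of all tested genes, and 29 differences were above 0, as in 51.7%. Twist2, a transcription factor of dermal mesenchyme, had levels of 10.26 and 8.06 in A-iPSC-ZSCAN10, against 5.08 and 4.91 in Y-iPSC, and rose by 4.17 ± 0.74 (adjusted p = 0.0202), a call lost without A-iPSC-ZSCAN10 3, without Y-iPSC 4 and in 5 of 14 other settings. Ccn1, a matricellular protein induced by growth factors and by stretch, had 9.21 and 9.38 in A-iPSC-ZSCAN10, against 10.60 and 10.86 in Y-iPSC, and fell by 1.43 on the log2 scale (adjusted p = 0.0275). All 3 of its probes passed, though none did so in all 4 fits with an array left out. Dcn, the proteoglycan decorin, differed by -1.44 (adjusted p = 0.636). The main fibrillar collagen genes did not pass: Col1a1 differed by 2.55 (adjusted p = 0.0999), Col1a2 by 1.46 (adjusted p = 0.683) and Col3a1 by 2.27 (adjusted p = 0.516).

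Markers of fibroblasts or feeder cells are largely the same genes: 10 of the 12 are on the list just given, all but Lum and Postn, so their levels restate it in part. Of the 12, 10 were detected on each A-iPSC-ZSCAN10 array and 6 on each Y-iPSC array. Their mean level was 7.95 and 6.86 in A-iPSC-ZSCAN10 3 and 7, against 5.59 and 6.34 in Y-iPSC 12 and 4. ESC had 6.69 and 6.60, and the 6 fibroblast arrays lay between 8.71 and 10.61. In 6 of the 12 both A-iPSC-ZSCAN10 arrays were above both Y-iPSC arrays and in 0 below both. Over all tested genes these shares were 25.1% and 21.9%. Of the 4 iPSC arrays Y-iPSC 4 was the highest for Dcn at 9.81 and for Thy1 at 8.50, while Lum and Postn, the 2 markers outside the list, were below the lowest detected level on all 4 iPSC arrays. Of these 4 arrays A-iPSC-ZSCAN10 3 was the highest for Twist2, Prelp, Pdgfra and Col6a1. With A-iPSC-ZSCAN10 3 left out 1 matrix gene rose, with A-iPSC-ZSCAN10 7 left out 6, with Y-iPSC 12 left out 8 and with Y-iPSC 4 left out 3. The part of fibroblast or feeder RNA in these differences was not tested.

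Several other genes rose with values that were steady across arrays. Slco2a1, the prostaglandin transporter, had levels of 10.01 and 9.16 in A-iPSC-ZSCAN10, against 5.75 and 5.07 in Y-iPSC, and rose by 4.17 ± 0.45 (adjusted p = 0.000818). Fxyd5, a regulator of the sodium pump that loosens cell adhesion, had 10.81 and 10.21 in A-iPSC-ZSCAN10, against 6.85 and 6.31 in Y-iPSC, and rose by 3.93 ± 0.51 (adjusted p = 0.00349) with all 3 of its probes past. Acta2, smooth muscle actin, had 12.23 and 12.69 in A-iPSC-ZSCAN10, against 11.02 and 10.58 in Y-iPSC, and rose by 1.66 ± 0.24 (adjusted p = 0.00604) with 4 of 4 probes past. These 3 genes and Bgn were also high in the fibroblasts, with Acta2 at a mean of 14.26 in A-SC and 14.17 in Y-SC. ESC were high as well in Acta2 (13.40 and 13.43) and Bgn (12.42 and 12.24). In Slco2a1 (6.61 and 6.79) and Fxyd5 (7.86 and 7.56) ESC were below A-iPSC-ZSCAN10. Acta2 was the only one of 12 tested genes of smooth muscle contraction that rose, and the list's median was 0.24. Over all tested genes 0.67% were called higher.

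Others were low in fibroblasts. Ces1f, a liver-type carboxylesterase, had 7.99 and 8.39 in A-iPSC-ZSCAN10, against 4.44 and 4.41 in Y-iPSC. No Y-iPSC, A-iPSC, ESC or fibroblast array detected it, so its level was at least 9.51-fold higher than the lowest detected level of the Y-iPSC arrays (adjusted p = 1.38e-05, the smallest of any named gene). Tspan8, a tetraspanin of epithelial and tumour cells, had 9.89 and 9.14 in A-iPSC-ZSCAN10, against 6.17 and 4.87 in Y-iPSC, and rose by 3.99 ± 0.37 (adjusted p = 0.00033). It was undetected in ESC and in all fibroblasts and had a mean of 7.42 in A-iPSC. Sox21, a transcription factor of stem cells and neural progenitors, had 10.53 and 8.86 in A-iPSC-ZSCAN10, against 6.73 and 4.63 in Y-iPSC, and rose by 4.01 ± 0.72 (adjusted p = 0.0209). Its groups did not overlap, yet it lost the call when either A-iPSC-ZSCAN10 3 or Y-iPSC 4 was left out.

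Glutathione, the main thiol antioxidant of the cell, is a pathway studied in iPSC of aged donors. Of 34 tested glutathione genes 2 rose and none fell, with a median of 0.07, where 0.67% of all tested genes were called higher. Gpx8, a peroxidase of the endoplasmic reticulum, had levels of 11.29 and 10.08 in A-iPSC-ZSCAN10, against 8.68 and 7.09 in Y-iPSC, and rose by 2.80 ± 0.47 (adjusted p = 0.0157) with 3 of 3 probes past. Its means were 10.12 in ESC, 7.54 in A-iPSC, 12.53 in A-SC and 12.42 in Y-SC. Chac1, an enzyme that degrades glutathione, had 10.74 and 10.28 in A-iPSC-ZSCAN10, against 9.05 and 7.96 in Y-iPSC, and rose by 2.00 ± 0.40 (adjusted p = 0.034). The call of Gpx8 held in 2 of the 4 fits with an array left out and that of Chac1 in 1. Gss, the glutathione synthetase, had 7.72 and 7.71 in A-iPSC-ZSCAN10, against 8.14 and 7.18 in Y-iPSC, and the difference was 0.05 with a 95% interval of -0.71 to 0.82. Gpx2, a glutathione peroxidase, was near the lowest detected level in both groups. It had 4.75 and 4.93 in A-iPSC-ZSCAN10, against 5.02 and 4.49 in Y-iPSC, while A-iPSC had 10.32 and 9.86 and ESC 7.76 and 7.87.

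**Figure D3:**
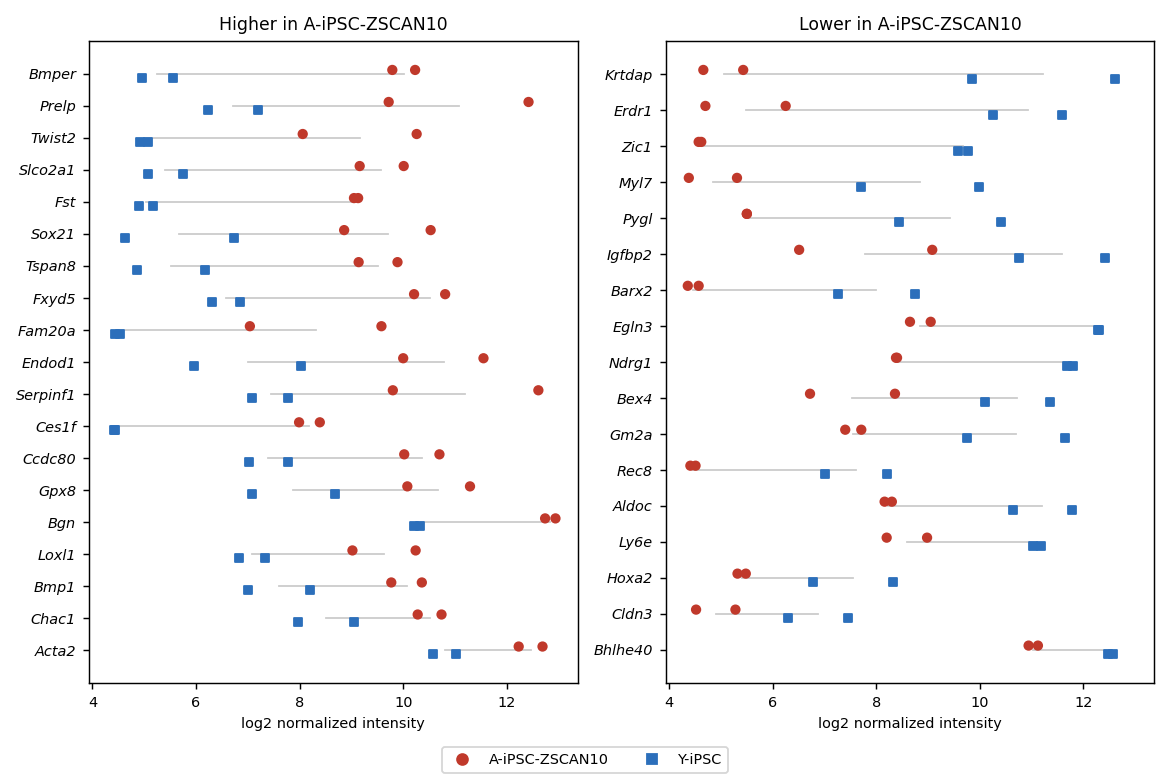
Level (log2 normalized intensity) of the 36 named genes that passed, 19 higher (left) and 17 lower (right) in A-iPSC-ZSCAN10. Each red circle is an A-iPSC-ZSCAN10 array, each blue square a Y-iPSC array, and the grey line joins the group means; in no gene do the groups overlap.

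The genes lower in A-iPSC-ZSCAN10 included targets of the hypoxia response. Egln3, a prolyl hydroxylase that marks HIF for destruction and is itself induced by HIF, had levels of 8.65 and 9.05 in A-iPSC-ZSCAN10, against 12.29 and 12.28 in Y-iPSC. It fell by 3.44 on the log2 scale (SE 0.41, adjusted p = 0.00204) with both probes past. Ndrg1, a stress gene induced by low oxygen, had 8.40 and 8.38 in A-iPSC-ZSCAN10, against 11.69 and 11.80 in Y-iPSC, and fell by 3.35 (SE 0.27, adjusted p = 0.00019), again by both probes. The arrays of each group were nearly level in both genes, and both calls held in all 4 fits with an array left out and in 13 of the 14 other settings. Bhlhe40, a transcription repressor of the clock and of hypoxia, had 11.12 and 10.94 in A-iPSC-ZSCAN10, against 12.47 and 12.57 in Y-iPSC, and fell by 1.49 (SE 0.29, adjusted p = 0.0288). Its call held in 1 of those 4 fits, with values of -1.59 to -1.41.

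Of 16 tested hypoxia genes these 3 fell and none rose, with a median of -0.60, where 0.78% of all tested genes were called lower. In 9 of the 16 both A-iPSC-ZSCAN10 arrays were below both Y-iPSC arrays, as in 21.9% of all tested genes. Adm, the peptide adrenomedullin, differed by -2.11 (adjusted p = 0.179), Vegfa, the vascular growth factor, by -0.74 (adjusted p = 0.528), and Hif1a itself by 0.30 (adjusted p = 0.87). Among 23 glycolysis and glucose uptake genes 1 fell and none rose, with a median of -0.38. Aldoc, the brain-type aldolase, had levels of 8.30 and 8.16 in A-iPSC-ZSCAN10, against 10.64 and 11.77 in Y-iPSC, and fell by 2.97 (SE 0.60, adjusted p = 0.0337). Pygl, the liver glycogen phosphorylase, had 5.50 and 5.50 in A-iPSC-ZSCAN10, against 8.44 and 10.41 in Y-iPSC, and fell by 3.93 (SE 0.79, adjusted p = 0.0337). Each of these calls held only without Y-iPSC 12 among the 4 fits. Slc16a3, the lactate exporter, differed by -2.89 (adjusted p = 0.0628), and Slc2a3, the glucose transporter GLUT3, had 11.41 and 11.57 in A-iPSC-ZSCAN10, against 13.07 and 12.79 in Y-iPSC, a difference of -1.44 ± 0.57 (adjusted p = 0.293). Gapdh, a core glycolysis enzyme, differed by -0.09 (adjusted p = 0.936) and Ldha, which makes lactate, by -0.18 (adjusted p = 0.808).

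Egln3, Ndrg1, Bhlhe40 and Aldoc had means in A-iPSC at or above those in Y-iPSC, and lower ones in ESC. The means of Egln3 were 12.38 in A-iPSC and 8.46 in ESC, those of Ndrg1 12.64 and 7.79, and those of Aldoc 12.70 and 8.05. A-iPSC-ZSCAN10 minus ESC gave 0.39 for Egln3 (adjusted p = 0.6), 0.60 for Ndrg1 (adjusted p = 0.176) and 0.18 for Aldoc (adjusted p = 0.899), and A-iPSC-ZSCAN10 minus A-iPSC gave -3.53 (adjusted p = 0.000314), -4.25 (adjusted p = 3.86e-06) and -4.47 (adjusted p = 0.00078). These comparisons share the A-iPSC-ZSCAN10 arrays with the main one. Oxygen, medium and density at harvest were not compared here.

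Since 3 hypoxia genes fell, sequences around gene starts were read from RefSeq promoters (build GRCm38.p6, 250 bases before to 50 after the start), which hold an entry for 25 of the 36 named genes that passed. The HIF binding core, ACGTG or GCGTG on either strand, was searched. Capitals mark it below, also where it stands reversed as CACGT or CACGC. Egln3 and Aldoc are the genes of the hypoxia and glycolysis lists that fell and have an entry. Bmper and Zic1 are shown beside them as genes of large, steady difference from other groups. A second entry of Aldoc, with 1 match, and that of Pygl, which is on neither list, with 2, are not shown. All sequences shown are given 5′ to 3′ on the strand of the gene. Egln3 lies at chr12:54203825-54204124 on the minus strand with 1 match, Aldoc at chr11:78322823-78323122 on the plus strand with 3, Bmper at chr9:23222826-23223125 on the plus strand with 1, and Zic1 at chr9:91365719-91366018 on the minus strand with 2.
Egln3: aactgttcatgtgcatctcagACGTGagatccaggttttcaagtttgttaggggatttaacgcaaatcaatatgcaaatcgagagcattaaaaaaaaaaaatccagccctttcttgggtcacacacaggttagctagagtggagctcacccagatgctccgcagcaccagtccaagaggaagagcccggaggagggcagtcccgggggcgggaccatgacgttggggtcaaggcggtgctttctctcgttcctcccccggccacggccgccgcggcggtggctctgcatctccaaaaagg
Aldoc: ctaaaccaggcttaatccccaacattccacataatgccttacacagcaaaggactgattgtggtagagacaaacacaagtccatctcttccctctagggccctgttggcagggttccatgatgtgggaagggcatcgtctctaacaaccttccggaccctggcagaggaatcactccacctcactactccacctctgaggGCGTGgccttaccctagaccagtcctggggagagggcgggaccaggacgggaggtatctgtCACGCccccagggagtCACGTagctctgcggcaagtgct
Bmper: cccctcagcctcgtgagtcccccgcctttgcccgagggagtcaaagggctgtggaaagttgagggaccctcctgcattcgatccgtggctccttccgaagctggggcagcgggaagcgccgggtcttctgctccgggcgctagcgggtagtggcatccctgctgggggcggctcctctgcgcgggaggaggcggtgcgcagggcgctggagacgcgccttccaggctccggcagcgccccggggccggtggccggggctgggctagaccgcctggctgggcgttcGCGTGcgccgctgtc
Zic1: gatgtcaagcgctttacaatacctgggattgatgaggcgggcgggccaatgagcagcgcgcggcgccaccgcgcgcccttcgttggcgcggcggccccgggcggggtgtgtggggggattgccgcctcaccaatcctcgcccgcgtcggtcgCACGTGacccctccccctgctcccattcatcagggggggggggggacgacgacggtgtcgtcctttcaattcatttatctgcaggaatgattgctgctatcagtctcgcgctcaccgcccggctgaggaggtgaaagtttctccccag
The core was present in 19 of the 27 promoters listed for these 25 genes, or 70.4%, and in 43.8% of all 32851 promoters of this length. It is short and common, and a match describes these letters only.

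Other genes that fell included the transcription factors Zic1 and Barx2. Zic1, a zinc finger factor of neural and somite tissue, had levels of 4.57 and 4.62 in A-iPSC-ZSCAN10, against 9.77 and 9.58 in Y-iPSC. No A-iPSC-ZSCAN10 array detected it, so it was at least 25.4-fold lower than in Y-iPSC (adjusted p = 0.000108). Barx2, a homeobox factor of epithelium and muscle, had 4.57 and 4.36 in A-iPSC-ZSCAN10, against 7.26 and 8.75 in Y-iPSC, and was at least 7.98-fold lower (adjusted p = 0.000818). Rec8, the cohesin subunit of meiosis, had 4.41 and 4.51 in A-iPSC-ZSCAN10, against 7.00 and 8.21 in Y-iPSC, and was at least 6.07-fold lower (adjusted p = 0.000674). The 3 genes were detected on both Y-iPSC arrays and on no A-iPSC-ZSCAN10 array, and their calls held in each of the 4 fits with an array left out. Zic1 and Barx2 were also undetected in A-iPSC and ESC, whereas ESC had Rec8 at 7.58 and 7.15.

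Krtdap, a secreted protein of differentiating keratinocytes, had levels of 5.43 and 4.66 in A-iPSC-ZSCAN10, against 9.85 and 12.60 in Y-iPSC. It fell by 6.18 (SE 0.90, adjusted p = 0.00715), the largest fall of all probes, and the call held in all 4 fits, with values of -7.57 to -4.81. Of 18 tested keratinocyte genes 1 fell, which was Krtdap itself, 0 rose in limma, and the median was 0.03 (4 had an unadjusted p under 0.05). For this list and that of simple epithelium below, 0.67% of all tested genes were called higher and 0.78% lower. Krt14, a keratin of basal keratinocytes, differed by 1.24 (adjusted p = 0.801) and Krt6b, a keratin of stressed epidermis, by 3.14 (adjusted p = 0.0531). The mean of 7 keratinocyte markers other than Krtdap was 7.16 and 7.50 in A-iPSC-ZSCAN10, against 7.50 and 6.65 in Y-iPSC, with overlap between the groups. Cldn3, a tight junction claudin, had 5.28 and 4.52 in A-iPSC-ZSCAN10, against 7.45 and 6.30 in Y-iPSC, and fell by 1.97 (SE 0.34, adjusted p = 0.0173), the only one of 19 genes of simple epithelium to pass (median -0.60). Its call was lost without A-iPSC-ZSCAN10 7.

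Myl7, the atrial myosin light chain, had levels of 4.38 and 5.31 in A-iPSC-ZSCAN10, against 7.71 and 9.99 in Y-iPSC, and fell by 4.01 (SE 0.55, adjusted p = 0.00528). Igfbp2, a binding protein of insulin-like growth factors, had 6.51 and 9.08 in A-iPSC-ZSCAN10, against 10.75 and 12.42 in Y-iPSC, and fell by 3.79 (SE 0.80, adjusted p = 0.0403). Both were highest in Y-iPSC 4. Without A-iPSC-ZSCAN10 3 neither passed, and Igfbp2 also failed to pass without Y-iPSC 4 and in 7 of 14 other settings. Hoxa2, a factor that patterns the hindbrain and branchial arches, had 5.48 and 5.32 in A-iPSC-ZSCAN10, against 6.77 and 8.33 in Y-iPSC. Of 21 tested HOX genes it alone passed, where 1.45% of all tested genes did. Hoxa2 fell by 2.15 (SE 0.42, adjusted p = 0.029). Its call held in 1 of the 4 fits with an array left out, with values of -2.94 to -1.37, and in 8 of 14 other settings. Gm2a, a lysosomal activator of ganglioside breakdown, had 7.40 and 7.71 in A-iPSC-ZSCAN10, against 9.76 and 11.64 in Y-iPSC, and fell by 3.15 (SE 0.51, adjusted p = 0.0127), a call lost without A-iPSC-ZSCAN10 3. Erdr1, a gene of the region shared by the X and Y chromosomes, had 6.25 and 4.70 in A-iPSC-ZSCAN10, against 10.25 and 11.58 in Y-iPSC, and fell by 5.44 (SE 0.96, adjusted p = 0.0199). The call held in 1 of the 4 fits, the one without Y-iPSC 12, and was lost with no filter. Erdr1 was high in both Y-iPSC arrays, unlike the sex-linked genes above, and at 11.68 and 10.76 in ESC.

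Among interferon and antigen presentation genes 1 passed. Ly6e, a surface protein induced by interferon, had levels of 8.98 and 8.20 in A-iPSC-ZSCAN10, against 11.17 and 11.02 in Y-iPSC, and fell by 2.50 (SE 0.32, adjusted p = 0.00349). Of the 26 tested interferon genes no other passed, where 1.45% of all tested genes did. In 23 of the 26 the difference was below 0, as in 48.3% of all tested genes, and the median was -0.90. All 16 tested genes of MHC class I presentation were below 0 with a median of -1.0, and 0 passed in limma (7 had an unadjusted p under 0.05). Both A-iPSC-ZSCAN10 arrays were below both Y-iPSC arrays in 16 of the 26 interferon genes and 12 of the 16 MHC class I genes. The share over all tested genes was 21.9%. Both were above both in 1 interferon gene and 0 MHC class I genes, where the share was 25.1%. Psmb9, an immunoproteasome subunit, had 5.10 and 4.91 in A-iPSC-ZSCAN10, against 6.38 in Y-iPSC 12 and 9.34 in Y-iPSC 4 (adjusted p = 0.0678). Igtp, an interferon-induced GTPase, had 5.11 and 4.88 in A-iPSC-ZSCAN10, against 6.01 in Y-iPSC 12 and 11.66 in Y-iPSC 4 (adjusted p = 0.245). In both genes Y-iPSC 4 was far above the other 3 arrays, while Ly6e was level in the Y-iPSC pair.

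**Figure D4:**
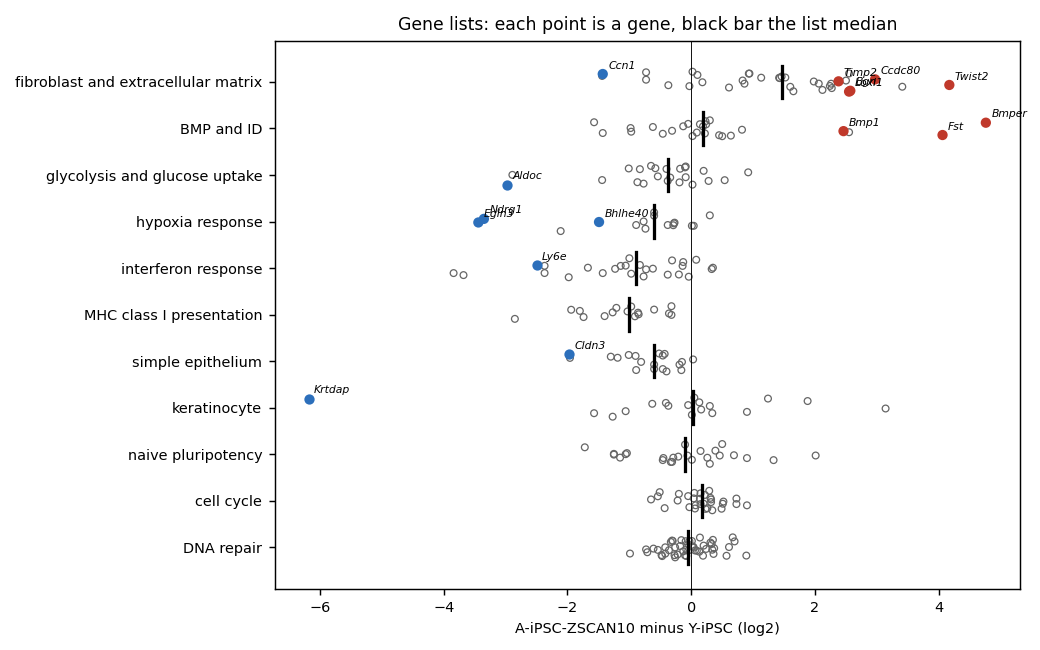
Difference A-iPSC-ZSCAN10 minus Y-iPSC (log2) of each tested gene of 11 lists, with filled points for genes that passed (red higher, blue lower), open points for the others and a black bar at the list median. Matrix genes lie to the right with a median of 1.46, interferon and MHC class I genes to the left, and cell cycle and DNA repair genes near 0.

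Gene groups tied to pluripotency, growth and genome upkeep had 0 members that passed in limma by the probe of highest mean. Over all 10004 tested genes 1.45% passed, so a count of 0 does not set lists of this size apart. By another probe Klf4, of the naive pluripotency list, passed with 1 of 3 and Trp53inp1, a p53 target, with 1 of 2. The count of 0 held for 25 genes of naive pluripotency (median -0.10), of which 6 had an unadjusted p under 0.05. Only 17 of these 25 were detected on both arrays of at least 1 of the groups compared. The count also held for 30 genes of the cell cycle (median 0.17), of which 0 had such a p. It also held for 49 genes of DNA repair (median -0.05, 4 with such a p), 31 of p53 and its targets (median -0.44, 9 with such a p) and 18 of the RNA exosome (median 0.14, 3 with such a p). Exosc1, a subunit of that RNA-degrading complex, had levels of 11.24 and 11.21 in A-iPSC-ZSCAN10, against 10.37 and 10.49 in Y-iPSC, a difference of 0.79 with a 95% interval of 0.15 to 1.43 (adjusted p = 0.245). Exosc2 differed by 0.34 (interval -0.86 to 1.54) and Exosc5 by 0.15 (interval -0.37 to 0.68). These intervals leave room for differences in either direction in the last 2 genes.

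The next question was where the differing probes stood in the other groups. Among the 93 probes higher in A-iPSC-ZSCAN10, the mean of A-SC was nearer to A-iPSC-ZSCAN10 than to Y-iPSC in 78.5%, that of Y-SC in 76.3%, that of ESC in 49.5% and that of A-iPSC in 19.4%. Among the 105 lower probes these shares were 90.5%, 87.6%, 68.6% and 50.5%, and over all 13061 probes they were 56.5%, 56.7%, 52.8% and 44.2%. The higher and lower probes were chosen by the difference between the groups from which nearness is measured. Nothing is therefore read from how far their shares lie from those of all probes. The median level of the 93 higher probes was 8.45 in A-iPSC-ZSCAN10 and 5.65 in Y-iPSC, beside 9.62 in A-SC and 9.31 in Y-SC. Both fibroblast groups, aged and young, were thus higher at these probes than A-iPSC-ZSCAN10 by the median. The median level of the 105 lower probes was 5.92 in A-iPSC-ZSCAN10 and 8.31 in Y-iPSC, beside 5.10 in A-SC and 5.09 in Y-SC. The fibroblast medians were near the lowest detected level of the fibroblast arrays, 4.96 to 5.20. A-SC was below both iPSC group means at 66 of the 105 and Y-SC at 62. At those probes being nearer to A-iPSC-ZSCAN10 meant only a low level in fibroblasts.

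**Figure D5:**
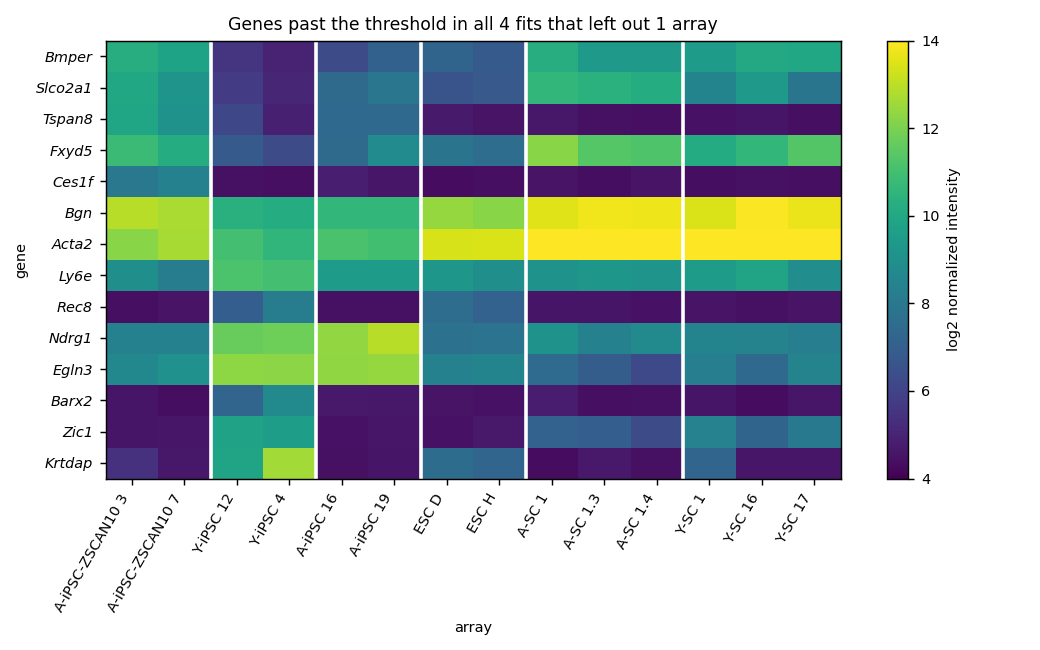
Level (log2 normalized intensity, colour scale) on all 14 arrays of the 14 named genes that passed in all 4 fits with an array left out. Bmper, Slco2a1, Fxyd5, Bgn and Acta2 are high in A-iPSC-ZSCAN10 and in fibroblasts, and Bgn and Acta2 also in ESC. Egln3 and Ndrg1 are high in Y-iPSC and A-iPSC, and Ces1f is high in A-iPSC-ZSCAN10 alone.

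The same probes were then compared between the donor fibroblasts. In A-SC minus Y-SC 33 of the 13061 probes passed, with a background of 0.414% of all tested probes. Arrays of both groups stood apart in markers of other cells. The mean of 6 endothelial markers was 9.26 in A-SC 1, against 4.64 and 4.74 in the other A-SC arrays and 4.68 to 4.89 in Y-SC. The mean of 8 macrophage or leukocyte markers was 5.50 to 5.83 in A-SC, against 6.62, 7.95 and 8.75 in Y-SC 1, 16 and 17. Without A-SC 1 the count was 53, without Y-SC 16 it was 58 and without Y-SC 17 it was 28, and the part of these cells in it was not tested. Of the 93 higher probes 2 passed there in the same direction, in Prelp and in Ptpn22, a phosphatase of lymphocytes, and of the 105 lower ones 2 passed in the same direction, in Adam23 and Igsf9, both cell adhesion genes, where 0.19% of all tested probes were higher and 0.224% lower. Prelp had a mean of 12.37 in A-SC and 7.54 in Y-SC, a difference of 4.82 (adjusted p = 0.00831), next to 4.36 between A-iPSC-ZSCAN10 and Y-iPSC. The test of the difference between both contrasts passed at 74 of the 13061 probes, with a background of 0.536%, and 23 of the 93 higher and 31 of the 105 lower probes were among them (background 0.258% and 0.278% in these directions). These probes were chosen by a difference that is itself part of that test, so nothing is read from their share. Bmper, for instance, had a mean of 9.66 in A-SC and 9.84 in Y-SC, and its contrasts differed by 4.94 ± 0.50 (adjusted p = 0.00234). For most of the 198 probes neither test passed, so a difference between the contrasts was not detectable there.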

How the data were processed

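Total RNA of 14 samples in 6 groups was hybridised to MouseRef-8 v2.0 arrays. The deposited non-normalized values are, per the file headers, a linear bead intensity with its detection p-value per probe and array; the submitters' processing notes name lumi without a version. The authors' deposited normalized intensity table entered 1 alternative fit. Precision is limited by the number of arrays; their median intensity was 110.656 to 147.6, with 47.6% to 52.3% of probes detected. Columns were matched to samples by name.

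The reported values come from limma 3.58.1 in R 4.3.3: neqc (background from detection p-values, offset 16, quantile normalization, log2), a filter to 14742 probes detected on every array of at least 1 group, and 1 mean per group over 14 arrays (8 residual degrees of freedom, prior 3.633). The threshold was a Benjamini-Hochberg adjusted p under 0.05. A gene is shown by its tested probe of highest mean, or its passing probe of largest difference where it was named by rank. At-least folds use the lowest detected level. Symbols come from the platform annotation, updated through gene IDs for 23962 of 23978 probes; 1719 have none. Steps were tested on simulated data.

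Named were the 12 highest and 12 lowest passing genes, the 6 highest and lowest detected on all 4 arrays, up to 4 passing members of each of 32 lists, and 16 fixed genes (Ddx3y has no probe; Eif2s3y and Xist serve as checks); not all are printed. Members that moved against or with a list without passing, and marker genes, were named after their values were seen. The members and lists were chosen with earlier results of these data known. Alternatives covered background, normalization, offset, filter, prior, array weights, arrays in the fit, export format, probe averaging and left-out arrays.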

Additional observations from a re-analysis of the deposited data

Results flagged for a closer look

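For 12 of the named genes the difference between the iPSC groups (A-iPSC-ZSCAN10 minus Y-iPSC) was not the difference between the fibroblast groups (A-SC minus Y-SC), by limma's test of the difference of both contrasts at an adjusted p under 0.05, which 0.536% of the 14742 tested probes passed. The genes were named for their difference between the iPSC groups, which is part of this test, so their share among the passing ones is not set against that background. The iPSC contrast was higher than the fibroblast contrast by 4.94 in Bmper, 3.98 in Tspan8, 3.70 in Ces1f, 2.57 in Bgn and 1.57 in Acta2. It was lower in Zic1 (-4.0), Myl7 (-3.80), Ndrg1 (-3.68), Gm2a (-3.66), Barx2 (-3.59), Rec8 (-3.19) and Ly6e (-2.26). Adjusted p-values were 0.000291 for Ces1f, 0.00174 for Ndrg1, 0.00234 for Bmper, 0.003 for Bgn, 0.00338 for Tspan8 and for Zic1, 0.00755 for Rec8, 0.00829 for Barx2, 0.0408 for Gm2a, 0.0439 for Ly6e, 0.0463 for Myl7 and 0.0499 for Acta2. No probe of Ces1f, Tspan8, Rec8, Barx2 or Myl7 was detected in any fibroblast, so there the test sets the iPSC groups against 2 groups at the detection limit. No group held the 4 or more arrays that a test of its single outlying values needs.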

How the results depend on the processing

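The count of 198 passing probes was 135 to 235 in 13 of 14 other settings and 0 with only the 4 arrays fitted (1816 with an unadjusted p under 0.05). Leaving out 1 of the 14 arrays gave 65 (A-iPSC-ZSCAN10 3) to 733 (Y-iPSC 12). Median scaling shifted the median of all probes to 0.117. Of the 36 named genes that passed, 14 passed in all 4 fits that left out an array of the compared groups, 15 in every other setting except the fit of only 4 arrays, where none passed, and none reversed. Matrix genes higher numbered 3 without background correction, with median scaling, with cyclic loess and with the authors' values, 2 with no filter, 0 with only the 4 arrays, and 1 to 8 with an array left out. Hypoxia genes lower numbered 0 with only the 4 arrays and 2 to 4 with an array left out. The 33 probes of A-SC minus Y-SC became 11 with no filter, 21 with probes averaged by gene, 321 without the 4 fibroblast arrays written with 1 decimal, and 11 to 58 with an array left out (24 without Y-SC 1). The 74 probes of the difference of contrasts became 48 without background correction, 42 with no filter, 49 with the authors' values, 207 without those 4 arrays, and 27 to 450 with an array left out (41 without A-iPSC-ZSCAN10 3). The fits without each fibroblast array were added after seeing the data. The cause of these moves was not tested. No paired analysis was possible because the compared groups share no replicate number. With 2 arrays per group, small differences and those of low signal could not be resolved.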

Other observations

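After the values were seen, 2 further gene groups were noticed among the 198 probes and were not tested as groups. Genes of cilia and flagella were among the lower ones: Ccdc113, a protein of the ciliary base, at -2.34, Rsph9, a radial spoke protein, at -2.28, Kif27, a kinesin, at -2.21, Ift81, a transport protein of the cilium, at -1.51 and -1.33 by 2 probes, and Odf3b, an outer dense fibre protein, at -1.05. Ccdc113 passed in all 4 fits with an array left out. Genes of barrier epithelium were lower as well: Ppl, periplakin, at -2.91, Alox12b, a skin lipoxygenase, at -2.87, Pkp3, a desmosome protein, at -1.94, Grhl3 at -1.82 and Elf3 at -1.37, the last 2 being transcription factors of epithelium. Alox12b had levels of 4.88 and 4.69 in A-iPSC-ZSCAN10, against 8.18 and 7.13 in Y-iPSC. These genes were picked for being lower. The 18 tested genes of the keratinocyte list went both ways, 10 above 0 and 8 below, with a median of 0.03.

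Angptl4, a secreted inhibitor of lipoprotein lipase induced by PPAR factors and by hypoxia, rose, while 3 genes of the hypoxia list fell. It had levels of 9.96 and 10.16 in A-iPSC-ZSCAN10, against 7.65 and 5.98 in Y-iPSC, and was higher by 3.25 (limma adjusted p = 0.00652), and Pparg, the adipocyte factor, was higher by 2.90. Sall3, a zinc finger factor of neural tissue, had 4.65 and 5.41 in A-iPSC-ZSCAN10, against 6.97 and 7.25 in Y-iPSC, a difference of -2.08.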
